A study of Homo sapiens and Mus musculus with 20 samples.

Results

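The E2F transcription factors and their direct partners were followed by 10 genes: the activators E2F1, E2F2 and E2F3, the repressors E2F4, E2F5, E2F6, E2F7 and E2F8, the pocket protein RBL1 (p107) and the dimerisation partner TFDP1 (DP1). Members were taken by symbol from the tables of IMR90 cells and made up 10 of the 17554 genes listed there. All 10 were listed in the A485 and MS-275 experiments, whereas 9 were listed with pyruvate, where E2F8 was not among the 12013 genes given. Roles were assigned from general knowledge of the family, not from the values.

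RNA was sequenced from IMR90, a line of fibroblasts from human fetal lung with a wild-type genotype. Cells received A485, an inhibitor of the p300 acetyltransferase, MS-275, which blocks class I HDACs (histone deacetylases), or pyruvate, the substrate from which lactate is made, and each treatment had its own untreated control (Control2, Control3 and Control6). The study describes the pyruvate treatment as given to senescent cells, which the sample labels do not state. Each of the 6 groups had 2 libraries, and nothing in the labels says that the libraries of a group came from separate cultures, so that p-values measure the spread between these libraries only, which may be technical.

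Every library held between 24179065 and 46971227 reads assigned to genes. Fibroblast markers were all listed, 11 of 11, and took 1.69% to 4.75% of the reads. Of 6 epithelial markers 2 to 4 were listed, at no more than 0.00866% of reads, of 4 endothelial markers 1 to 2 were listed, at no more than 0.000554%, and of 4 immune markers at most 1 was listed. Values below are normalised read counts, that is, the reads of a gene scaled by the size factor of its library. A gene was called where the adjusted p was under 0.05 and the log2 fold change was beyond 1 in either direction, and fold changes are on the log2(value + 1) scale, which understates changes of low genes. These are bulk libraries, in which a lower share of cycling cells and less RNA per cell cannot be told apart.

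E2F factors bind DNA as dimers with a DP protein and control the genes that carry cells from G1 into S phase. In quiescent cells the pocket proteins RB1, RBL1 and RBL2 hold them in check, and RBL1 and RBL2 with E2F4 or E2F5 form the repressive DREAM complex. Cyclin-dependent kinases release the activators, while E2F6 represses within a Polycomb complex and the atypical E2F7 and E2F8, which need no DP partner, switch targets off again later in S phase. In proliferating fibroblasts several members, E2F1, E2F2, E2F7, E2F8 and RBL1 among them, are themselves E2F-responsive genes, and their RNA is low in cells that have left the cycle.

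Because several members are E2F-responsive, the stretch before the start site is shown for some members. These are E2F1, E2F2, E2F3 and RBL1, which hold an E2F-like match, and a pair without. Promoter windows from RefSeq (GRCh38.p14, 250 bases before to 50 after the start) were held for 8 of the 10 members, with a second window for E2F3. The letters searched were TTTCCCGC, TTTCGCGC, TTTGCCGC and TTTGGCGC on both strands, and the 120 bases before the start are printed 5′ to 3′ on the strand of the gene, with matches in capitals.
E2F1: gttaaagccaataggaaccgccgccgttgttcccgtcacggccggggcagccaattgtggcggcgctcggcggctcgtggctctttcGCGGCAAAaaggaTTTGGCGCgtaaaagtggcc
E2F2: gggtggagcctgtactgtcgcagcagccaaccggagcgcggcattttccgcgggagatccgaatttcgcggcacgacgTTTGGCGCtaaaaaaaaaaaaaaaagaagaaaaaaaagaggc
E2F3: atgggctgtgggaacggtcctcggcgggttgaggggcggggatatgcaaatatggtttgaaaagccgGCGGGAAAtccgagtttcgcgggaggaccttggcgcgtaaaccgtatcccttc
RBL1: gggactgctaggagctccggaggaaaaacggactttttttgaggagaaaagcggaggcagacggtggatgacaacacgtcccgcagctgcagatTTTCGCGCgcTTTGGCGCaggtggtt
E2F4: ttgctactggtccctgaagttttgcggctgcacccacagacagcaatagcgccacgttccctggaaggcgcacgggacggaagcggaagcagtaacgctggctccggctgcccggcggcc
E2F7: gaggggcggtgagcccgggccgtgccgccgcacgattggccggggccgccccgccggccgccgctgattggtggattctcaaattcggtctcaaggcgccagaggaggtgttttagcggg
The stretches lie at chr20:33686386-33686505 on the minus strand (E2F1), chr1:23531234-23531353 minus (E2F2), chr6:20401759-20401878 plus (E2F3), chr20:37095998-37096117 minus (RBL1), chr16:67192035-67192154 plus (E2F4) and chr12:77065570-77065689 minus (E2F7). A match was found in 5 of the 8 members, the fifth being TFDP1, which is not printed, against 3.31% of all 35116 windows. The second window of E2F3 held none. E2F1 carried its matches at -33 to -26 and at -20 to -13 from the start, and RBL1 at -26 to -19 and at -16 to -9. Only 0.145% of all windows held 2 or more. E2F4, E2F6 and E2F7 had none of these letters in their windows, which says nothing about whether a factor binds there. The CHR letters TTTGAA, known from late cell cycle promoters, were found in 1 member, E2F3, and in 15.2% of all windows.

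**Figure D1:**
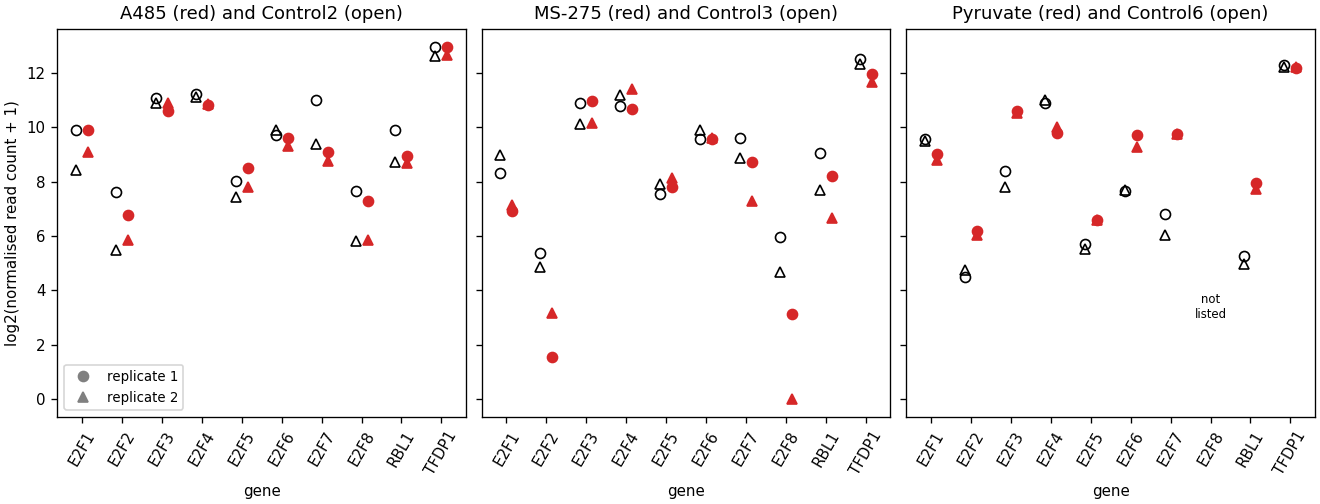
Normalised read counts of the 10 genes in each library, as log2(value + 1) on the vertical axis, with treated libraries in red, control libraries open, circles for replicate 1 and triangles for replicate 2. With MS-275, E2F1, E2F2, E2F7, E2F8 and TFDP1 lie below both control libraries, and with pyruvate E2F3, E2F6, E2F7 and RBL1 lie far above both.

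With MS-275 the members split within each role rather than between roles. E2F1 and E2F2 were low among the activators, and E2F7 and E2F8 among the repressors, whereas E2F3, E2F4, E2F5 and E2F6 lay close to their controls. No member was called, and neither was any of the 15883 genes tested (0%, limma with Benjamini-Hochberg adjustment), while 3 members and 1730 genes had an unadjusted p under 0.05. The replicate number was not in this fit, although deviations of same-numbered libraries correlated at 0.73. A fit with the replicate number is given in the last section. The members' median log2 fold change was -0.78 against -0.01 over all genes.

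E2F1 (chr20:33675477-33686385, hg38), the activator best known for driving S phase entry, had 119 and 139 normalised reads in the MS-275 libraries, replicates 1 and 2, and 317 and 503 in Control3. The groups did not overlap. Its log2 fold change was -1.63 ± 0.41 (SE, adjusted p = 0.29, limma with Benjamini-Hochberg adjustment), with -1.40 within replicate number 1 and -1.85 within number 2.

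E2F2 (chr1:23506438-23531233), a second activator, had 1.94 and 7.97 with MS-275 and 40.6 and 28.3 in Control3. These values stand for 2 and 8 reads against 41 and 28, so that counting error is large. The log2 fold change was -2.77 ± 0.78 (adjusted p = 0.326, limma with Benjamini-Hochberg adjustment). E2F3 (chr6:20401879-20493714), the third activator, differed from this pattern, with 2008 and 1128 against 1877 and 1119. Its libraries followed the replicate number rather than the treatment, and the fold change was 0.05 ± 0.47.

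Among the repressors, E2F8 (chr11:19224063-19241620) had 7.75 and 0 with MS-275 and 61.4 and 24.3 in Control3, or 8 and 0 reads against 62 and 24. Its log2 fold change was -3.75 ± 1.24 (adjusted p = 0.385, limma with Benjamini-Hochberg adjustment), and without Control3 replicate 2 it was -4.40 and called (adjusted p = 0.00969 in the same test). E2F7 (chr12:77021248-77065569), its close relative, had 423 and 156 against 781 and 470, a fold change of -1.23 ± 0.61. Both atypical factors were lower in each MS-275 library than in either control library.

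E2F4 (chr16:67192155-67198918), a pocket protein-bound repressor of quiescent cells, had 1635 and 2687 with MS-275 and 1770 and 2347 in Control3. E2F5, which shares that role, had 221 and 282 against 186 and 237. E2F6 (chr2:11444375-11466177), the Polycomb-linked repressor, had 752 and 787 against 761 and 963. The groups of all 3 overlapped, and their log2 fold changes of 0.04 ± 0.39, 0.25 ± 0.37 and -0.15 ± 0.32 were smaller than their errors.

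Of the partners, RBL1 (chr20:36996349-37095997) had 296 and 101 with MS-275 and 535 and 208 in Control3. The groups overlapped because replicate 2 was the lower library in both, and the difference was -0.85 within number 1 and -1.04 within number 2. TFDP1 (chr13:113584721-113641473), the DP subunit shared by the classical E2Fs, had 3985 and 3273 against 5891 and 5177, without overlap and with a log2 fold change of -0.61 ± 0.31.

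In all, 5 of 10 members had MS-275 libraries below both control libraries, compared with 19.3% of all genes tested. Within replicate numbers 7 of 10 were below 0 in both, against 40.4% of genes. E2F1, E2F2 and E2F8 were below -1 in both numbers, 3 of 10 members against 4.85% of genes.

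**Figure D2:**
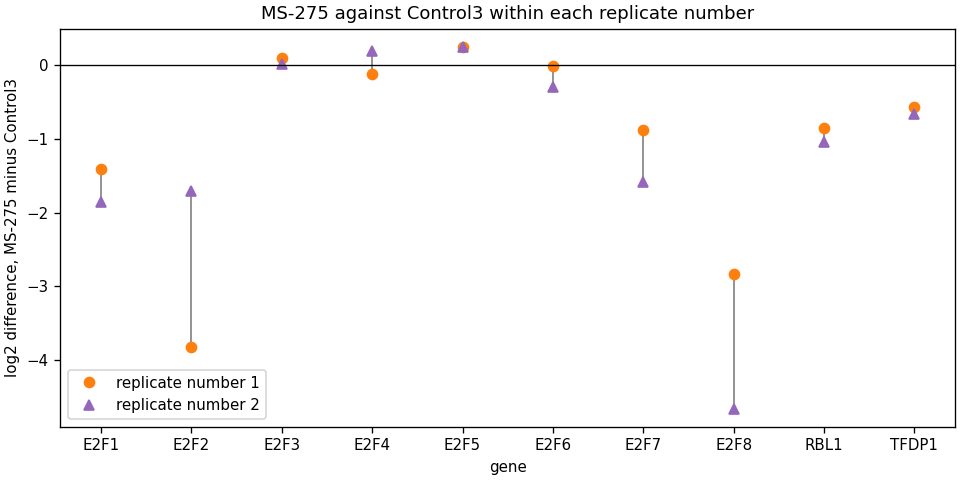
Log2 difference of MS-275 minus Control3 for each gene, taken within replicate number 1 (circles) and number 2 (triangles), with a grey line joining both. E2F1, E2F2 and E2F8 lie below -1 in both numbers, whereas both points of E2F3 and E2F5 lie above 0.

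Of 27 known G1/S target genes, all were below 0 within both replicate numbers and 20 were below -1 in both (4.85% of all genes), with a median log2 fold change of -1.62 and 22 at an unadjusted p under 0.05, although none was called by limma with Benjamini-Hochberg adjustment. RRM2, the small subunit of ribonucleotide reductase, had 209 and 184 with MS-275 and 2666 and 2300 in Control3. Its fold change of -3.65 ± 0.32 had an adjusted p of 0.142 (limma with Benjamini-Hochberg adjustment), the lowest of the list. Thymidylate synthase TYMS had a fold change of -2.42 and the licensing factor CDC6 -2.09. MYBL2 (B-MYB), which takes over the MuvB core in S and G2 phase, had 30.0 and 57.8 against 711 and 779, a fold change of -4.13 ± 0.46, and FOXM1, a driver of mitotic genes, had -2.20. Of the other pocket proteins RB1 stood at -0.20 ± 0.88 and RBL2 at -0.00 ± 0.43, against -0.95 ± 0.74 for RBL1. The error of RB1 was large, and TFDP2, the other DP partner, stood at 0.32. The median of the E2F6 complex list was -0.15. Among kinase inhibitors CDKN1C had -3.23 and CDKN2C -1.50, while CDKN2B, which blocks CDK4 and CDK6, had 1.16. The remaining inhibitors, named after their values were seen, had 1.13 (CDKN2D), 0.98 (CDKN1A), 0.83 (CDKN2A) and -0.47 (CDKN1B). Over all 16 genes of the list of cyclins, kinases and inhibitors 9 were above 0 and 7 below, with a median of 0.48. The phosphatase CDC25A stood at -1.21. CCNF, a ubiquitin ligase subunit that targets activator E2Fs, had -1.21, SKP2 -0.38 and FZR1 -0.40. Of the E2F6 complex PCGF6 had -0.70, L3MBTL2 -0.60, RYBP -0.30 and MAX 0.32, and of the MuvB core RBBP4 had -0.73 and LIN54 -0.95. None of these was called.

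With A485 several differences rested on 1 control library. No member was called by limma with Benjamini-Hochberg adjustment, against 1667 of 16084 genes (10.4%), and E2F7 alone had an unadjusted p under 0.05, as did 4949 genes. On the recovered reads edgeR called none and DESeq2 called 1, E2F7, and the shares of all genes that these tests called are not given here. The members' median log2 fold change was -0.24, compared with 0.01 over all genes. The fibroblast markers took 1.72% to 1.91% of reads with A485 and 4.39% to 4.75% in Control2, and their part in these results was not tested.

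E2F7 had 544 and 428 normalised reads in the A485 libraries and 2027 and 668 in Control2. Both A485 libraries lay below both controls, which differed widely from each other. The log2 fold change was -1.27 ± 0.51 (adjusted p = 0.157, limma with Benjamini-Hochberg adjustment). With DESeq2 it was -1.47 and called (adjusted p = 0.0184), without Control2 replicate 2 it was -2.07 and called (adjusted p = 0.0194, limma with Benjamini-Hochberg adjustment), and without Control2 replicate 1 it was -0.47 and not called.

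Control2 replicate 1 was the higher control library for most of the E2F-responsive members. E2F1 had 943 and 544 with A485 and 955 and 344 in Control2, a fold change of 0.32 ± 0.52 that became -0.41 without Control2 replicate 2. E2F2 had 107 and 57.0 against 196 and 44.1, and E2F8 154 and 57.0 against 201 and 55.1. RBL1 had 487 and 408 against 942 and 417. For these 4 genes the treated and control ranges overlapped, and without Control2 replicate 1 the fold changes of E2F2, E2F8 and RBL1 turned from -0.25, -0.17 and -0.49 to 0.81, 0.76 and 0.095.

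The remaining members differed little. E2F4 had 1825 and 1853 with A485 and 2410 and 2186 in Control2, and E2F6 had 785 and 639 against 835 and 942. Both were lower without overlap, at -0.32 ± 0.17 and -0.32 ± 0.22, but under equal library totals the fold changes were 0.073 and 0.068. E2F3 had 1542 and 1922 against 2151 and 1884, E2F5 357 and 222 against 258 and 171, and TFDP1 7999 and 6454 against 7973 and 6374. TFDP1 was the closest to its control, at 0.01 ± 0.20. Together with E2F7, 3 of 10 members did not overlap and were lower, at a background of 30.7% of genes.

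Upstream of the E2Fs a D-type cyclin rose and another fell with A485. CCND2, a D-type cyclin, rose from 399 and 412 normalised reads in Control2 to 1375 and 1772 with A485, a log2 fold change of 1.94 ± 0.22 (adjusted p = 0.00606, limma with Benjamini-Hochberg adjustment). CCND1, another D-type cyclin, fell from 52608 and 80268 to 14556 and 15030, a change of -2.14 ± 0.25 (adjusted p = 0.00701 in the same test). They were the only calls among the 15 genes of the cyclin and inhibitor list, where 3.31% of all genes were called higher and 7.06% lower. CDK4, the kinase of the D-type cyclins, had a change of -0.99 ± 0.16 (adjusted p = 0.0155, limma with Benjamini-Hochberg adjustment), just inside the fold threshold, and CCND3 stood at -0.47. RB1 had 5702 and 5502 with A485 and 3097 and 2717 in Control2, a change of 0.95 ± 0.16 (adjusted p = 0.0196, limma with Benjamini-Hochberg adjustment). TFDP2 had a change of 0.93 ± 0.18 (adjusted p = 0.0251, limma with Benjamini-Hochberg adjustment), and neither reached the fold threshold. TFDP2 was called at 1.18 with the length and GC trend removed (adjusted p = 0.0109), and RB1 at 1.04 without Control2 replicate 1 (adjusted p = 0.0408), both by limma with Benjamini-Hochberg adjustment.

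Of the 27 G1/S targets none was called with A485, 2 had an unadjusted p under 0.05, and 25 were below 0, with a median of -0.51. That count depended in part on Control2 replicate 1, since without it 11 of 27 were below 0 and the median was 0.04. Within replicate numbers the median was -0.87 in number 1 and -0.15 in number 2. Thymidine kinase TK1 stood at -1.42, the maintenance methylation factor UHRF1 at -1.34, TYMS at -0.84 and the helicase subunit MCM7 at -1.02. FOXM1 had -1.04, LIN54 -0.46, LIN52 0.44 and RBBP4 0.34, and no gene of the MuvB list was called. None of the E2F6 complex list was called either, where CBX3 had -0.66, YAF2 0.64, MAX 0.38 and L3MBTL2 0.40, although CBX3 was called at -1.07 with the length and GC trend removed (adjusted p = 0.0102, limma with Benjamini-Hochberg adjustment). RBL2 stood at 0.25, SKP2 at 0.38, CCNF at -0.40 and FZR1 at -0.09.

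With pyruvate most members differed from Control6, as did most of all genes tested. Of 9 members tested 5 were called higher (31% of all genes) and 1 was called lower (23.1%). In 8 of 9 the adjusted p of limma (Benjamini-Hochberg) lay below 0.05, as it did for 80.9% of all genes. In total 6503 of 12013 genes were called (54.1%), so that a call was common in this experiment. Those called higher were the activators E2F2 and E2F3, the repressors E2F6 and E2F7 and the partner RBL1, and the repressor E2F4 was called lower.

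E2F7 had 867 and 866 normalised reads with pyruvate and 112 and 65.1 in Control6. The log2 fold change was 3.33 ± 0.23 (adjusted p = 1.12e-07, limma with Benjamini-Hochberg adjustment). RBL1 had 245 and 212 against 37.3 and 30.4, and rose by 2.72 ± 0.29. These values were the highest fold changes of the 9 members.

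E2F3 rose from 333 and 220 to 1530 and 1481, by 2.47 ± 0.17 on the log2 scale (adjusted p = 1.01e-07, limma with Benjamini-Hochberg adjustment). E2F6 rose from 200 and 206 to 844 and 620, by 1.83 ± 0.17. The low E2F2 rose from 21.6 and 26.0 to 70.8 and 64.7, by 1.47 ± 0.41 (adjusted p = 0.00652, limma with Benjamini-Hochberg adjustment), and without Pyruvate replicate 1 it was 1.41 and no longer called (adjusted p = 0.0644). In all 3 genes the groups were well apart. E2F5 had 95.4 and 95.1 against 51.1 and 44.5 and came just short of the fold threshold, at 0.98 ± 0.32 (adjusted p = 0.0142, limma with Benjamini-Hochberg adjustment). Without Control6 replicate 1 it was 1.08 and called (adjusted p = 0.00915 in the same limma test). The span of E2F5 overlaps that of the listed gene RBIS, and how reads of the overlap were counted is not known here.

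E2F4 fell from 1907 and 2068 in Control6 to 876 and 1025 with pyruvate, a log2 change of -1.07 ± 0.10 (adjusted p = 1.43e-06, limma with Benjamini-Hochberg adjustment). Without Pyruvate replicate 1 it was -0.95 and under the fold threshold. E2F1 had 519 and 448 against 751 and 712, a change of -0.60 ± 0.12 (adjusted p = 0.000871 in the same test), which did not reach that threshold. TFDP1 had 4688 and 4818 against 5048 and 4751, with overlap and a change of -0.04 ± 0.06.

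**Figure D3:**
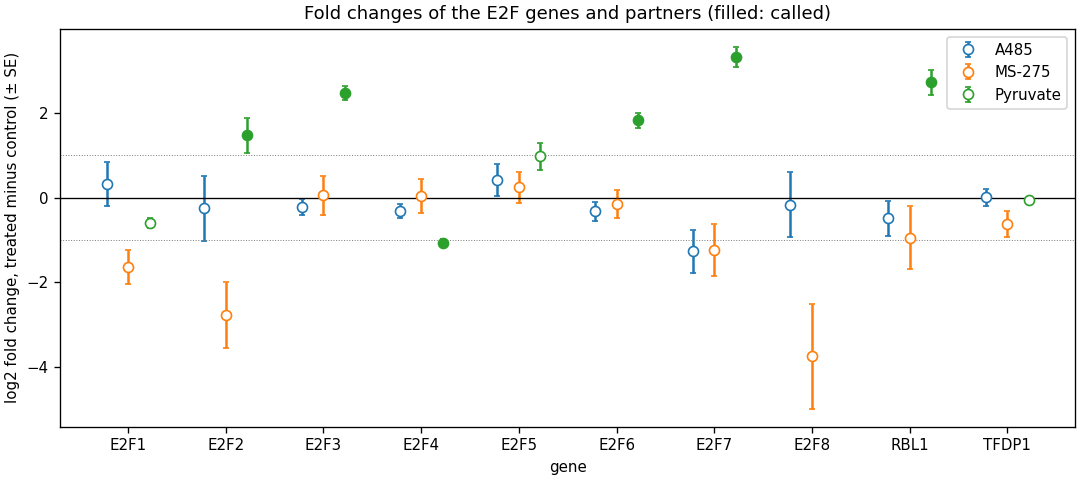
Log2 fold change, treated minus control, with its standard error for each gene in the A485 (blue), MS-275 (orange) and pyruvate (green) comparisons. Filled points are the calls, all of them with pyruvate, and dotted lines mark the fold threshold of 1 in each direction.

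In the pyruvate experiment the fold change of all genes moved with the GC content of their transcripts (Spearman rho = -0.72 across 11888 genes, which are not independent replicates). The median fold change ran from 1.72 in the lowest of 10 GC bins to -1.21 in the highest, whereas rho was -0.11 with A485 and -0.02 with MS-275. E2F1, E2F4 and E2F2 have the highest GC content of the members tested, at 61.6%, 58.1% and 57.4%, and RBL1 and E2F7 the lowest, at 40.0% and 43.1%. A trend fitted to length and GC content of the transcripts was then taken out of each library. After that E2F1 was 0.73 and E2F4 0.20 (adjusted p = 0.00167 and 0.112, limma with Benjamini-Hochberg adjustment). Both signs turned, but the median over all genes was also 0.20 in that fit, so that E2F4 stood at this median. RBL1 was then 0.997 and just under the threshold, and E2F5 was called at 1.13. The genes called numbered 3569 after that removal. Relative to the median of genes of like GC content, E2F3 was higher by 2.36, E2F2 by 2.30 and E2F7 by 1.83, E2F1 by 0.44, and E2F4 stood at -0.24.

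**Figure D4:**
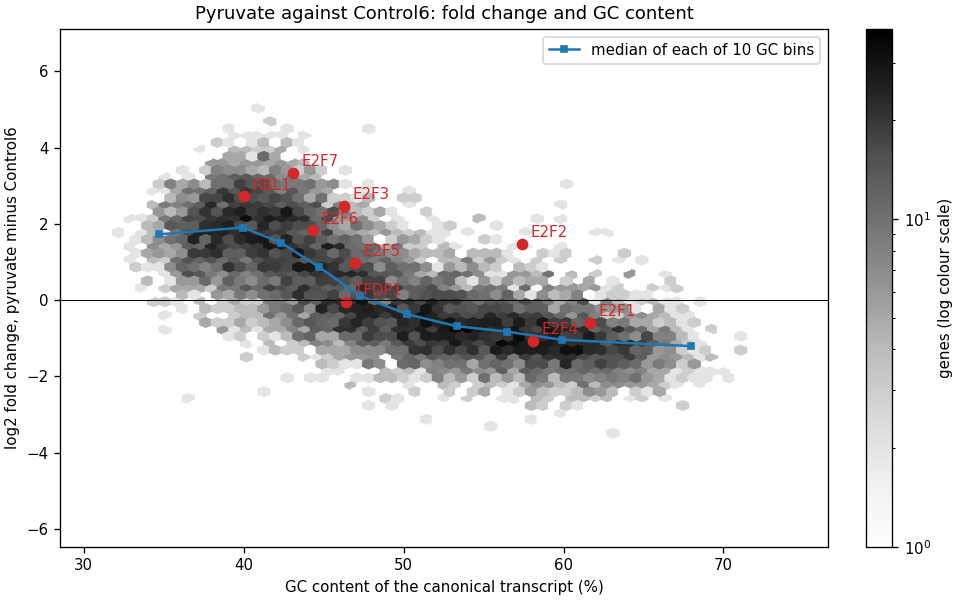
Log2 fold change of pyruvate minus Control6 against the GC content of the canonical transcript, in percent, with all genes as grey hexagons shaded by their number, the medians of 10 GC bins in blue, and the 9 members in red. The medians run from 1.72 to -1.21, E2F1 and E2F4 lie near them at high GC content, and E2F2, E2F3 and E2F7 lie well above.

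Around the members, 16 of 25 G1/S targets were called higher with pyruvate (31% of all genes) and none lower. All 25 were above 0 with an adjusted p of limma (Benjamini-Hochberg) below 0.05 (80.9% of all genes), and the median was 1.65. With that trend taken out 22 were called higher and none lower, when 20.4% of all genes were called higher and 9.57% lower and the median over all genes was 0.20. CCNA2, the S phase cyclin, rose from 36.3 and 56.4 to 1199 and 1156 normalised reads, by 4.67 ± 0.22 on the log2 scale. RRM1 rose by 3.97, PCNA, the sliding clamp of DNA polymerase, by 2.46 and RRM2 by 2.31. The pocket protein RB1 rose by 2.32 ± 0.27 and RBL2 by 2.21 ± 0.18, but neither was called after that removal, and TFDP2 stood at 0.53. In the MuvB list 5 of 6 were called higher (31% of all genes), with MYBL2 at 1.28, FOXM1 at 1.31, RBBP4 at 1.61 and LIN52 at 1.53 among them. After the removal 2 were called higher (20.4% of all genes).

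In the E2F6 complex list 6 of 8 genes were called higher with pyruvate (31% of all genes), and 5 were called higher with the length and GC trend taken out (20.4%). The others, L3MBTL2 at -0.93 and MAX at -0.26, were not called in the main test and are named after their values were seen. MGA, which anchors the complex to DNA with MAX, rose from 43.2 and 28.2 to 434 and 472, by 3.66 ± 0.27. RYBP rose by 2.88, RNF2 by 2.49 and CBX3 by 2.19. Among cyclins, kinases and inhibitors the picture was mixed, with 2 of 14 called higher and 6 lower (31% and 23.1% of all genes). CDKN2A, the locus of the senescence marker p16, fell by 3.18 on the log2 scale, and CDKN1A (p21) fell by 1.87. The inhibitors did not all fall, since the 2 genes called higher were CDKN1B, at 2.54, and CDKN2C. CDKN2D was called lower at -2.40, and CDKN2B stood at -0.46 and was not called. These 4 inhibitors are named after their values were seen. With the length and GC trend removed CDKN2A was called at -1.88, and CDKN1A was not called. CDKN1B and CDKN2C were still called higher in that fit, at 2.43 and 1.19, and CDKN2B and CDKN2D were called lower, at -1.29 and -1.01. CCND3 fell by 2.57 and CCND1 fell by 1.40 in the main test, and after that removal they were called at -1.23 and -1.06. Of the E2F turnover genes SKP2 rose by 1.78, FZR1, an activator of the anaphase-promoting complex, fell by 1.41, and CCNF stood at 0.74. With the length and GC trend removed SKP2 and FZR1 were not called, and CCNF was called at 1.61.

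The contrast of activators with repressors gave small or uneven shifts. It was taken in each library as the mean log2 value of E2F1, E2F2 and E2F3 minus that of the listed repressors. With A485 it was 0.02 and 0.10, compared with 0.01 and -0.45 in Control2, a difference of 0.28 that was smaller than the spread between the control libraries (SD 0.33, n = 2). With pyruvate it was -0.37 and -0.45, against -0.29 and -0.22 in Control6, so that both treated libraries were lower, by -0.15 on average. The difference of the median fold changes of the roles was 0.07 instead, and 0.88 with the length and GC trend removed, so that its direction depends on the summary. With MS-275 it was -1.50 and -0.48, compared with -0.51 and -0.52, so that replicate 1 alone was low. The difference was -0.99 within number 1 and 0.03 within number 2. E2F2, at 2 reads in MS-275 replicate 1, lowered the activator mean in number 1. E2F8, at 0 reads in MS-275 replicate 2, lowered the repressor mean in number 2. The medians of the roles were further apart: the activators' median fold change with MS-275 was -1.63 and that of the repressors -0.15.

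Within the family, E2F1 and E2F7 differed from each other in a way that the role means hid. This pair was chosen after the values were seen, and no test was run on it. With 1 added to each value, the ratio of E2F1 to E2F7 was 1.73 and 1.27 with A485 and 0.471 and 0.515 in Control2, without overlap. With pyruvate it was 0.599 and 0.518, compared with 6.66 and 10.8 in Control6. With MS-275 it was 0.283 and 0.886, against 0.406 and 1.07, and followed the replicate number. The ratio hardly depends on the size factor of a library, but in the pyruvate experiment it compares genes of unlike GC content (61.6% and 43.1%). It is not per length and is to be read between libraries only.

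**Figure D5:**
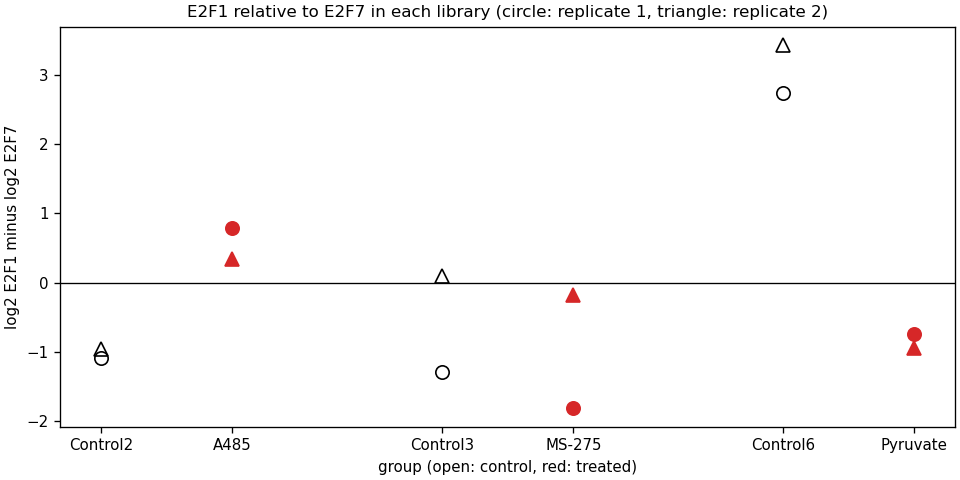
Log2 value of E2F1 minus that of E2F7 in each of the 12 libraries, by group, with control libraries open, treated libraries red, circles for replicate 1 and triangles for replicate 2. Both A485 libraries lie above 0 and both Control2 libraries below, and with pyruvate the order of treated and control is the opposite.

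Whether the treatments differed in their effect was tested gene by gene over the 8 libraries of a pair of experiments, each treatment against its own control. Between A485 and MS-275 no member was called (3.81% of 15130 genes) by limma with Benjamini-Hochberg adjustment. E2F1 alone had an unadjusted p under 0.05. The differences in effect were 1.95 ± 0.76 for E2F1, 2.52 ± 1.20 for E2F2 and 3.58 ± 1.61 for E2F8 on the log2 scale, all toward lower values with MS-275. Between pyruvate and A485 4 of 9 members were called (54.3% of genes), namely E2F3 at 2.70, E2F6 at 2.15, E2F7 at 4.60 and RBL1 at 3.21. Between pyruvate and MS-275 5 of 9 were called (39%): E2F2 at 4.24, E2F3 at 2.42, E2F6 at 1.98, E2F7 at 4.56 and RBL1 at 3.67. Without Pyruvate replicate 1, Pyruvate replicate 2 or Control6 replicate 2 that count was 3. The experiments were normalised separately and had separate controls, so that treatment and experiment cannot be told apart in these differences.

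Levels between genes were compared as normalised read counts per kb of the canonical transcript, within a group. TFDP1 was the highest in all 6 groups, with means from 1375 (MS-275) to 2738 (A485) per kb, and E2F4 was next in each, from 451 (pyruvate) to 1089 (Control2). Their ranges overlapped only in the MS-275 group, at 1240 to 1510 for TFDP1 and 775 to 1273 for E2F4. E2F2 was the lowest member in every group, at 0.954 (MS-275) to 23.1 (Control2) per kb, and overlapped with E2F8, the next, wherever E2F8 was listed. The order of the middle members differed between groups. E2F1 was the third in Control6 at 272 ± 10.4 per kb (SD, n = 2), above E2F6 at 62.9 and E2F3 at 54.9, which overlapped. With pyruvate E2F3 was the third at 299 ± 6.88, above E2F6 at 227 and E2F1 at 180, and the last pair overlapped. E2F1 has a GC content of 61.6%, against 46.3% for E2F3 and 44.3% for E2F6. The part of the GC trend of this experiment in that change of order was not tested. Reads of named pseudogenes of E2F3, E2F4, E2F6 and TFDP1 could be split from the parent gene or added to it, and of these 1 of 3 TFDP1 pseudogenes was itself listed.

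Genes most like E2F1, E2F4 and E2F7 were taken by Pearson's r of log2 values centred within each experiment, over 12 libraries and 11989 genes, as a description only. For E2F7 these were CHROMR (r = 0.987), CEP55 (0.981), which acts in the last step of cell division, and the condensin II subunit NCAPG2 (0.981). For E2F4 they were INTS11 (0.993), RITA1 (0.981) and DRG2 (0.980), and for E2F1 SEMA4C (0.991), ZNF767P (0.950) and C9orf40 (0.945). Among the members themselves E2F7 and RBL1 had r = 0.967, and E2F3 and E2F4 had r = -0.898. Every such r includes the 4 libraries of the pyruvate experiment with its GC trend, and its part in these values was not tested.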

How the data were processed

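RNA was measured in 12 IMR90 libraries, 2 per group, and the 8 mouse muscle libraries of the series were not used here. Per the study's methods and the submitters' processing notes, the authors trimmed reads with Trim Galore 0.6.10, aligned them to hg38 with HISAT2 2.2.1, used SAMtools 1.7, counted reads per gene with featureCounts 2.0.6 and divided them by size factors with DESeq2 1.34.0. The deposited signal is this normalised read count, 1 table per library, and each experiment was normalised separately. The annotation and strand setting are not given in the sources used here. Every value was a whole multiple of 1 step per library (100% within 0.01 read), which gave the depth, but count tests (edgeR 4.0.16, DESeq2 1.42.0) were run as alternatives for A485 only. Depth bears on counting error only.

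The main test was limma 3.58.1 with intensity trend in R 4.3.3, per experiment, on log2(value + 1) of genes with a mean of at least 10, with Benjamini-Hochberg adjustment over all genes tested. It was tested on simulated data. Names and lengths came from GENCODE for hg38 (98.4% to 99.0% of genes matched). All members, the 4 genes of each pathway list with the smallest p, every gene of a list of 3 or fewer, and the 3 genes most like E2F1, E2F4 and E2F7 are named, except 1 that is not reported here. Members and lists were chosen with earlier results of these data known. Alternatives changed the pseudocount, filter, scaling, GC and length trend, fold threshold, replicate block and each replicate. List counts after trend removal and without Control2 replicate 1 were added after the data were seen. Replicates differed by more than counting noise (chi-square per degree of freedom 4.54 to 472), so none was a copy.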

Additional observations from a re-analysis of the deposited data

How the results depend on the processing

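Groups of 2 libraries limit every test here, and leaving out a library moved several A485 and MS-275 values. With library totals made equal, the median over all genes tested was 0.40 with A485, -0.15 with MS-275 and 0.30 with pyruvate, and it was 0.12 and -0.17 with A485 and pyruvate under quantile normalisation. The share of calls that were higher was 31.9% with A485, 65.1% under equal totals and 42.6% under quantile normalisation, and with pyruvate 57.3%, 71.7% under equal totals, 49.3% under quantile normalisation and 68.1% with the length and GC trend removed. Under equal totals with A485 E2F2 was 0.14, E2F3 0.17, E2F4 0.073, E2F6 0.068 and E2F8 0.22, and 2578 genes were called. With MS-275 E2F3 was -0.088 and E2F4 -0.10, and with pyruvate TFDP1 was 0.27, E2F5 1.29 and called, and E2F4 -0.76 and not called. Under quantile normalisation TFDP1 was 0.29 with pyruvate. Without the intensity trend 840 genes were called with A485, and DESeq2 called 1 member, E2F7, with its share of all genes not given here. The activators' median fold change minus the repressors', whose spread is the SD over the 4 pairs of a treated and a control library, was 0.09 with A485, -1.48 with MS-275 and 0.07 with pyruvate. It was -0.73 with MS-275 at a mean of at least 50, where E2F2 and E2F8 drop out, and with pyruvate -0.12 at a pseudocount of 10, -0.47 at a mean of at least 50 and 0.88 with the length and GC trend removed, where E2F1 was 0.73, E2F4 0.20 and 3569 genes were called. With the fold minimum at 0.58, or with none, 2 members, E2F1 and E2F4, were called lower with pyruvate. With no minimum 80.9% of all genes were called in either direction. The cause of these shifts was not tested.

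The replicate number was tried as a block, although the labels state no shared culture or day and each comparison has only 2 pairs (correlation of same-numbered deviations 0.32 with A485, 0.73 with MS-275 and 0.00 with pyruvate). With the block 4 members (E2F1, E2F2, E2F7 and E2F8) and 2183 genes (13.7%) were called with MS-275, and 3 members and 1958 genes (12.5%) with the trend removed as well. With A485 1 member, E2F7, was called in the block fit (15.5% of all genes) and likewise 1 with the trend removed (14.2%), and with pyruvate 6 members in the block fit (54.2%). In the blocked fit with the trend removed E2F1 was 0.73, E2F4 0.20, 3631 genes (30.5%) were called with pyruvate and the activators minus repressors were 0.88. Between A485 and MS-275 the block called 2 members, E2F1 and E2F8 (20.6% of all genes), and 2 with the trend removed (19.7%).

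Leaving out 1 library at a time, members called ranged from 0 to 1 with A485 and MS-275 and from 4 to 7 with pyruvate, and genes called from 229 to 1284, 33 to 444 and 6365 to 6484. The lone library of an arm was assumed to vary like the rest. With A485 229 genes were called without A485 replicate 1 and 301 without A485 replicate 2, where 6.11% and 3.65% of the calls were higher, and with MS-275 each library left out gave calls (33 and 46 without MS-275 replicates 1 and 2, 424 and 444 without Control3 replicates 1 and 2). Activators minus repressors ranged from -0.023 to 1.06 with A485, -1.64 to -1.31 with MS-275 and -0.0996 to 0.24 with pyruvate. Members called for the difference in effect ranged from 0 to 0 (A485 and MS-275), 4 to 5 (pyruvate and A485) and 3 to 6 (pyruvate and MS-275). With A485 E2F1 ranged from -0.41 to 1.06, E2F2 from -1.31 to 0.81, E2F8 from -1.09 to 0.76, RBL1 from -1.08 to 0.095 and TFDP1 from -0.15 to 0.17. With MS-275 E2F1 ranged from -1.96 to -1.30, E2F2 from -3.57 to -1.96, E2F7 from -1.95 to -0.52, E2F8 from -5.31 to -2.18 and RBL1 from -1.72 to -0.17, while E2F3 ranged from -0.36 to 0.47, E2F4 from -0.32 to 0.40 and E2F6 from -0.32 to 0.017, and with pyruvate TFDP1 from -0.087 to 0.00037. Count tests on MS-275 and pyruvate (edgeR, TMM, DESeq2) were not run.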
